A study of Mus musculus with 3 samples.

Results

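The genes described here encode the subunits of the 5 enzyme complexes of oxidative phosphorylation. They were chosen by gene symbol among the protein-coding genes of the mouse GENCODE annotation: *Nduf* genes for complex I, *Sdha* to *Sdhd* for complex II, *Uqcr* genes and *Cyc1* for complex III, *Cox4* to *Cox8* genes for complex IV and *Atp5* genes for complex V. This gave 86 of 22028 protein-coding genes, 37 in complex I, 4 in complex II, 9 in complex III, 18 in complex IV and 18 in complex V. Open chromatin had been mapped by ATAC-seq, in which a transposase cuts accessible DNA, in 4 mouse pre/pro-B-cell lines. All lines came from bone marrow transformed by a retrovirus with the BCR-ABL(p185) oncogene. In 2 of them both copies of *Cdk6* were wildtype, and in the other 2 both copies carried the kinase-inactive K43M mutation. Each line gave 1 list of peaks. A wildtype list that has no sample label of its own is called wildtype unnumbered. By the design text, 1 wildtype line had been deposited earlier and was reanalysed, which by elimination is that list, and a difference between the deposits could not be tested. The others are wildtype 2, K43M 1 and K43M 2. Values of 4 lists are given in that order throughout.

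Complex I (NADH dehydrogenase) and complex II (succinate dehydrogenase, also an enzyme of the citric acid cycle) feed electrons to ubiquinone. Complex III (cytochrome bc1) passes them to cytochrome c, and complex IV (cytochrome c oxidase) passes them to oxygen. Complexes I, III and IV pump protons across the inner mitochondrial membrane, and complex V (ATP synthase) uses the gradient to make ATP. A few subunits are encoded in mitochondrial DNA. All genes described here are nuclear. Known regulators of such genes include NRF-1, the ETS factor GABP (also called NRF-2), YY1 and the estrogen-related receptors (ERR), which bind close to transcription starts. Several complex IV subunits exist as a widely used isoform and an isoform of muscle, lung or testis.

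The promoter sequences below are fixed stretches at the starts of chosen genes, most of them shown for their motif matches. They are not a sample of the open chromatin. Each holds 150 bases before and the first 30 bases of the principal transcript (GRCm38.p6, RefSeq assembly, written 5′ to 3′ in the direction of the gene). Capitals mark matches, on either strand, to NRF-1 (GCGCANGCG), ETS (CCGGAAGT), YY1 (AAGATGGCG), ERR (TCAAGGTCA), SP1 (GGGGCGGGG), NFY (CCAATCA or CCAATGA), CRE (TGACGTCA), E-box (CACGTG) or AP-1 (TGANTCA). *Ndufs1*, a core iron-sulfur subunit of complex I, and *Uqcrh*, the hinge protein of complex III, are shown for their ETS matches. *Ndufs7*, another core iron-sulfur subunit, and *Ndufa9* are shown for YY1, and *Ndufa6* for NFY.
Ndufs1, chr1:63176793-63176972, minus strand: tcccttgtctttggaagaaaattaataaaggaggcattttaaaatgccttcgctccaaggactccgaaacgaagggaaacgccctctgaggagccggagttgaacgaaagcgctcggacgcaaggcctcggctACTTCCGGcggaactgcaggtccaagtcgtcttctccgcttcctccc
Uqcrh, chr4:116075042-116075221, minus strand: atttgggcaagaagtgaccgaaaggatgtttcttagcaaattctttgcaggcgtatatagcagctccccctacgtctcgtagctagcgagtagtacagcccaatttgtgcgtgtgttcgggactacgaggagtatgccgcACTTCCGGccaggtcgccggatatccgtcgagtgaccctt
Ndufs7, chr10:80249302-80249481, plus strand: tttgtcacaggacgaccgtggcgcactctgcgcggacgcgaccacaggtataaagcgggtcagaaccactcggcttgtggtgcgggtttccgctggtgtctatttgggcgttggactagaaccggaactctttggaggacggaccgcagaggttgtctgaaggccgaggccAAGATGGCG
Ndufa9, chr6:126849096-126849275, minus strand: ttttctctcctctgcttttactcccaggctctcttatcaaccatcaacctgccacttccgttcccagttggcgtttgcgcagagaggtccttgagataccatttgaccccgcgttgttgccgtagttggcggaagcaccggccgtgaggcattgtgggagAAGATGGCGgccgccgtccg
Ndufa6, chr15:82354293-82354472, minus strand: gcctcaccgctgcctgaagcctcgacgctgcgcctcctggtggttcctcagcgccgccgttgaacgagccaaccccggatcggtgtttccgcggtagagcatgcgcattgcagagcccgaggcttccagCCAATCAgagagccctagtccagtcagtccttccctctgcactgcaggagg

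NRF-1 matches lay beside other motifs in several genes. *Sdha*, the flavoprotein of complex II, held NRF-1 matches only, and *Sdhd*, a membrane anchor of complex II, held NRF-1 and ERR. *Uqcr11* of complex III held NRF-1 and ETS. In complex V, *Atp5c1* (the gamma subunit of the rotor) and *Atp5k* held NRF-1, *Atp5g3* (a c subunit of the membrane ring) held NRF-1 and ERR, and *Atp5h* held NRF-1, NFY and ETS.
Sdha, chr13:74350251-74350430, minus strand: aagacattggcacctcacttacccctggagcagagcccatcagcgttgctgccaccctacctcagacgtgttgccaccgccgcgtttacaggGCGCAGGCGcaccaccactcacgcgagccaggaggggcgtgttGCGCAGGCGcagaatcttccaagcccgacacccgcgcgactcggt
Sdhd, chr9:50603783-50603962, minus strand: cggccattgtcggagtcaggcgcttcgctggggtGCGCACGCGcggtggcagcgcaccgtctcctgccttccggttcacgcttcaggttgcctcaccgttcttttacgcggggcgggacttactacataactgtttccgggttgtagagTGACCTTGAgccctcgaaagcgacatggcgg
Uqcr11, chr10:80406801-80406980, minus strand: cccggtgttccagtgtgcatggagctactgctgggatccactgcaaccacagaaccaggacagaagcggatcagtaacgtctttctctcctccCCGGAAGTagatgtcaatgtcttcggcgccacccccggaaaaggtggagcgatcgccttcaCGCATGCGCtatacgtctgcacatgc
Atp5c1, chr2:10080415-10080594, minus strand: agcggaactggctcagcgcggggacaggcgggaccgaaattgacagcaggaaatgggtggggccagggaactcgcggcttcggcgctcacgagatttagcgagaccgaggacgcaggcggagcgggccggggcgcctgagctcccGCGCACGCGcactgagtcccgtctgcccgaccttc
Atp5k, chr5:108434419-108434598, minus strand: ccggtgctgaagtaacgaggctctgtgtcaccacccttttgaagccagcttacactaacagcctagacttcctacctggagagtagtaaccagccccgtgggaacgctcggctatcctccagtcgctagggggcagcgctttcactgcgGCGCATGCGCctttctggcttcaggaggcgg
Atp5g3, chr2:73911297-73911476, minus strand: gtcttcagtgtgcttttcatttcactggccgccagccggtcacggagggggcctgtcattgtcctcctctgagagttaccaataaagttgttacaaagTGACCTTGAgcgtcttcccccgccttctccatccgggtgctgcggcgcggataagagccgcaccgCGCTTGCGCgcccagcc
Atp5h, chr11:115419933-115420112, minus strand: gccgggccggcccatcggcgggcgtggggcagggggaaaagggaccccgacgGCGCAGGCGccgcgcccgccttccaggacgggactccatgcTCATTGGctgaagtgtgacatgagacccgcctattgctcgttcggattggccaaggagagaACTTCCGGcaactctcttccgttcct

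Complex IV is shown by *Cox4i1*, with SP1 matches, *Cox6a1*, with NRF-1 matches, and *Cox7b*, which had no promoter peak in any list and no match to these motifs in this stretch.
Cox4i1, chr8:120668072-120668251, plus strand: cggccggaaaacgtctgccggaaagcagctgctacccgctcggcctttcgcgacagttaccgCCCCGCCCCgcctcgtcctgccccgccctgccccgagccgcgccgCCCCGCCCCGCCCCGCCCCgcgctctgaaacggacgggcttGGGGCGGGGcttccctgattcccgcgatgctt
Cox6a1, chr5:115348952-115349131, minus strand: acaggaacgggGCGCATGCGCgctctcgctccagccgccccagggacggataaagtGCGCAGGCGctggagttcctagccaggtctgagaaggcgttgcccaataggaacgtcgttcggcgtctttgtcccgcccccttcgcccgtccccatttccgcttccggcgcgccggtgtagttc
Cox7b, chrX:106015550-106015729, plus strand: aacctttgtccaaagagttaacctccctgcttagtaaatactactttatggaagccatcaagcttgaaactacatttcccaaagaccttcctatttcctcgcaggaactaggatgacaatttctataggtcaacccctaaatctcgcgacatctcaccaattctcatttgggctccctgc

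The lists held 33038 to 39038 peaks, with median fold enrichments of 6.61 to 6.94 and median widths of 389 to 419 bp. Fold enrichment, as deposited, divides the summit signal by the local background of the library. Read totals were not given. The lowest local background of a list, which 8.38% to 13.7% of its peaks shared and which follows the read total, was 1.31, 1.13, 1.10 and 0.968 read ends per summit window, so wildtype unnumbered was the deepest library and K43M 2 the shallowest. The labelled cell type was checked on marker genes. Of 10 B-lineage genes, 8 had a promoter peak in all 4 lists, and *Cd79b* and *Rag1* lacked one in K43M 2. Of 11 genes of T cells, myeloid and erythroid cells, muscle and liver, 9 had none in any list. *Cd3d* had a peak in wildtype 2 and *Lyz2* in both wildtype lists.

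A promoter peak was a peak with at least 1 bp in the window that runs from 200 bp past any annotated start back to 2000 bp before it. Of the 86 genes, 78 (90.7%, 95% Wilson interval 82.7% to 95.2%) had a promoter peak in all 4 lists, against 47.3% of the other 21942 protein-coding genes. These were all 37 genes of complex I, all 4 of complex II, all 9 of complex III, 17 of 18 of complex V and 11 of 18 of complex IV. The members that lacked a peak were thus nearly all genes of cytochrome c oxidase. A promoter peak shared by the lines of a single genotype was rare. *Cox6a2* had one in wildtype alone, against 112 (0.51%) of the other protein-coding genes, and no member had one in K43M alone, against 439 (2.0%).

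The complex IV isoform families separated by where the isoform is known to be used. *Cox4i1*, *Cox6a1*, *Cox6b1*, *Cox7a2* and *Cox8a* encode the widely used isoforms, and each had a promoter peak in all lists. *Cox4i2* (lung), *Cox6b2* and *Cox7b2* (testis), *Cox8b* (heart and skeletal muscle) and *Cox8c* (testis) had none in any list. *Cox6a2*, the heart and skeletal muscle isoform, had a peak in both wildtype lists only. Its summits lay 2014 and 2055 bp upstream of the start, with fold enrichments of 7.78 and 5.62, which placed them at percentiles 59.4 and 33.5 of their lists. Both summits lay outside the promoter window, which the peaks overlapped in part, and with the window narrowed to 500 bp around the start *Cox6a2* had no promoter peak. There were 2 exceptions to the split. *Cox7a1*, the muscle isoform of subunit 7a, had a promoter peak in all lists at percentiles 82.8, 68.5, 77.1 and 86.0. *Cox7b*, which is widely used, had none. The nearest summits to the *Cox7b* start lay 3876, 3832, 3772 and 3791 bp upstream, closer to the start of *Magt1*, with fold enrichments of 8.28, 8.41, 8.16 and 7.35.

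The remaining gene without a promoter peak was an additional annotation entry under the symbol *Atp5o*, which starts inside the gene of the same name. The established *Atp5o* entry, for the OSCP subunit of ATP synthase, had a promoter peak in all lists. None of the 8 genes that lacked a peak in at least 1 list was CpG-rich at its start (G and C over 50% and an observed to expected CpG ratio over 0.6 within 500 bp). Their CpG ratios were 0.162 for *Cox4i2*, 0.245 for *Cox8b*, 0.261 for *Cox6a2*, 0.284 for the *Atp5o* entry, 0.444 for *Cox6b2*, 0.464 for *Cox8c*, 0.468 for *Cox7b2* and 0.482 for *Cox7b*. At the summits of the 78 genes with a peak in all lists, 67 (85.9%) were CpG-rich, against 76.2% of 10368 other genes with a peak in all lists. *Cox7a1*, the muscle isoform with a peak, had a ratio of 0.288 at its summit.

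How high a promoter peak stood was measured within its own list, as the percentile of its fold enrichment among all peaks of that list, with 100 the highest. Where a gene had several promoter peaks, the one with the highest fold enrichment was used. The subunit genes had median percentiles of 84.0, 87.5, 84.55 and 83.65. The other protein-coding genes with a promoter peak had medians of 77.0, 78.5, 78.4 and 78.1, below the subunit genes in each list. Few subunit genes stood below percentile 50 of a list, between 3.80% and 7.69%, against 16.4% to 18.7% of the other genes. These shares count genes with a promoter peak in that list. That held for 11027 to 11785 of the other genes, not all of which had one in every list. Among genes with a peak in all lists, the median of the mean percentile was 86.5 for the subunit genes and 79.6 for the others. The lead depended on the measure. Ranked by -log10 q, the medians over the lists averaged 82.6 for the subunit genes and 82.2 for the others. Ranked by the summit pileup, the number of read ends counted at the summit, they averaged 80.4 and 81.7. The median local background was lower at the subunit genes in each list, at 4.36, 3.82, 4.06 and 3.22 read ends, than at the other genes, at 4.66, 4.20, 4.22 and 3.58.

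**Figure D1:**
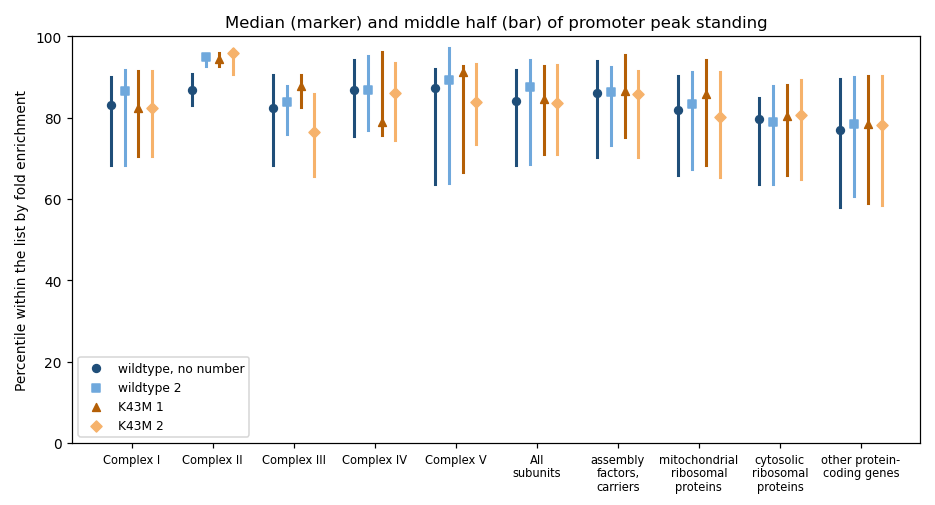
Percentile of promoter peaks by fold enrichment within each list (vertical axis, 0 to 100) for each complex, all subunit genes and comparison sets. Markers are medians, bars run from the lower to the upper quartile of the genes, and colors are the 4 lists. Complex II sits highest in 3 of the 4 lists, and the other protein-coding genes have medians of 77.0 to 78.5.

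Ranked by fold enrichment, complex II had the highest mean of 4 list medians, at percentile 93.01 ± 4.2 (SD over lists, n = 4). Complex V followed at 87.8 ± 3.1, complex IV at 84.6 ± 3.9, complex I at 83.6 ± 2.1 and complex III at 82.65 ± 4.7. Complexes V, IV, I and III each differed from the next by no more than the larger SD of the pair. Complex II exceeded complex V by more than either SD but not in every list, since the wildtype unnumbered medians were 86.8 and 87.2. It rests on 4 genes, and its place depended on the measure. Ranked by -log10 q, complexes II and V averaged 90.1 each, and ranked by pileup they averaged 86.1 and 89.1. Within a gene the 4 lists spread over a median of 13.2 percentile points, as against 12.7 for the other genes, so small differences between members lay within the spread between lists.

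**Figure D2:**
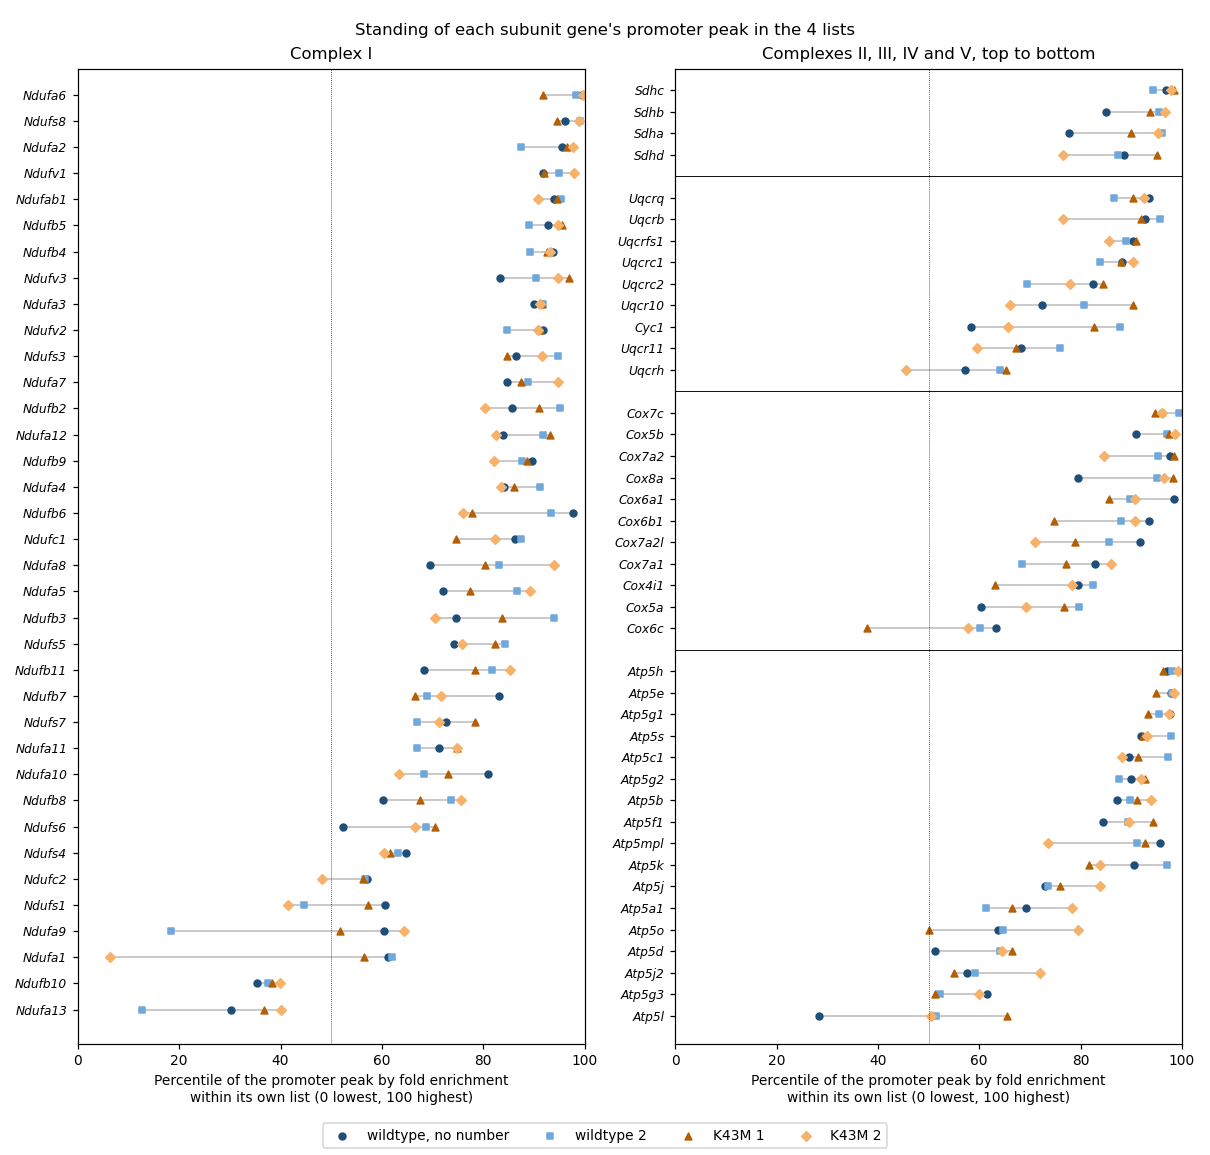
Percentile of each subunit gene's promoter peak by fold enrichment within its own list (horizontal axis) for 77 of the 78 genes with a peak in all lists. Each row is a gene, markers are the 4 lists, grey lines join the lowest and highest, and the dotted line marks percentile 50. In all, 9 genes fall below percentile 50 in at least 1 list and 11 stay above 90 in every list.

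In complex I, *Ndufa6* and *Ndufs8* stood highest. *Ndufa6*, an accessory subunit whose promoter holds the NFY match shown above, was at percentiles 99.5, 98.4, 91.7 and 99.6. *Ndufs8*, a core iron-sulfur subunit, was at 96.1, 99.2, 94.5 and 98.8. *Ndufab1*, the mitochondrial acyl carrier protein, and *Ndufv1*, the flavoprotein that takes electrons from NADH, also stayed above 90 in every list. *Ndufs7* and *Ndufs1*, also core subunits, stood lower. *Ndufs7* was at 72.6, 67.0, 78.3 and 71.2, and *Ndufs1* at 60.7, 44.6, 57.2 and 41.4. *Ndufs1* thus fell below the middle of its list in 1 line of each genotype.

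The lowest member of all was *Ndufa13* (also known as GRIM-19), at 30.2, 12.6, 36.7 and 40.1, and the next was *Ndufb10* at 35.4, 37.6, 38.3 and 40.0. Both stayed below percentile 50 in every list. Of the 9 members below 50 in at least 1 list, 6 belonged to complex I, and *Ndufa1*, *Ndufa9*, *Ndufc2* and *Ndufs1* are the other 4. *Ndufa9* and *Ndufa1* varied most between lists. *Ndufa9* was at 18.4 in wildtype 2 and between 51.7 and 64.5 in the other 3 lists. *Ndufa1* was at 6.38 in K43M 2 and between 56.4 and 62.0 in the others.

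Among the complex II genes, *Sdhc*, a membrane anchor, was at 96.8, 94.4, 98.5 and 97.8. *Sdhb*, the iron-sulfur subunit, was at 85.0, 95.4, 93.7 and 96.6. *Sdha* was at 77.7, 96.1, 89.99 and 95.4, and *Sdhd* at 88.6, 87.45, 95.01 and 76.5. Only *Sdhc* stayed above 90 in every list. Its K43M lists stood above its wildtype lists, and the genotypes of the other 3 genes overlapped. In complex III, *Uqcrq* (93.5, 86.6, 90.4 and 92.6) and *Uqcrb* (92.8, 95.6, 91.9 and 76.5) stood highest. The catalytic core was spread out. *Uqcrfs1*, the Rieske iron-sulfur protein, was at 90.4, 88.9, 90.95 and 85.7, and *Uqcrc1*, a core protein, was at 88.2, 83.9, 87.9 and 90.4. *Cyc1*, cytochrome c1, was at 58.4 and 87.85 in the wildtype lists and 82.65 and 65.6 in the K43M lists, so the gap within wildtype spanned both K43M values. The lowest were *Uqcr11* (59.5 to 76.0) and *Uqcrh* (45.6 to 65.3).

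In complex IV, *Cox7c* (96.1, 99.5, 94.7 and 96.1) and *Cox5b* (90.9, 97.1, 97.4 and 98.6) stayed above 90 in every list. *Cox4i1*, the large regulatory subunit, was at 79.4, 82.5, 63.1 and 78.2, and *Cox5a* was at 60.3, 79.7, 76.8 and 69.3. *Cox6c* stood lowest, at 63.4, 60.2, 37.8 and 57.8. In the remaining isoform families, *Cox6a1* was at 98.45, 89.7, 85.6 and 90.8, *Cox6b1* at 93.5, 87.9, 74.8 and 90.7, *Cox7a2* at 97.7, 95.3, 98.3 and 84.7, and *Cox8a* at 79.45, 95.1, 98.3 and 96.5. *Cox7a2l*, which joins complexes III and IV into supercomplexes, was at 91.7, 85.6, 78.8 and 70.9. *Ndufa4*, a subunit of complex IV despite its symbol, was counted with complex I and stood at 84.1, 91.3, 86.1 and 83.5.

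Complex V held the highest member of all, *Atp5h* of the peripheral stalk, at 97.1, 97.95, 96.3 and 99.2. *Atp5e*, the epsilon subunit, followed at 97.8, 98.0, 94.8 and 98.4. Of the 3 genes that encode an identical mature c subunit, *Atp5g3* stood far below the others. *Atp5g1* was at 97.6, 95.4, 93.2 and 97.5 and *Atp5g2* at 89.97, 87.5, 92.6 and 91.9, while *Atp5g3* was at 61.6, 52.3, 51.3 and 60.0. Their order was the same in every list. The catalytic head was also uneven, with *Atp5b* (beta) at 87.2, 89.7, 91.1 and 93.9, *Atp5c1* (gamma) at 89.5, 97.2, 91.3 and 88.3, and *Atp5a1* (alpha) at 69.1, 61.4, 66.5 and 78.3. *Atp5l* was the lowest of the complex, at 28.4, 51.5, 65.5 and 50.5.

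Peaks were of ordinary promoter width. The median width of the subunit genes was 811, 767, 826 and 765 bp, and that of the other genes was 842, 804, 819 and 746 bp. The widest peak was that of *Atp5j* (coupling factor 6), at 1768, 1704, 1733 and 1650 bp, and its window is shared with the start of *Gabpa*, which encodes the DNA-binding subunit of GABP. The next widest were *Ndufb5* (929 to 1404 bp), *Atp5a1* (1059 to 1255 bp), *Ndufa11* (866 to 1498 bp) and *Uqcrh* (726 to 1494 bp). The narrowest were *Ndufb10* (301 to 409 bp), *Ndufa1* (281 to 629 bp), *Cox6b1* (364 to 596 bp), *Cox6c* (416 to 708 bp) and *Cox7a1* (470 to 611 bp). For *Ndufa1* the 281 bp is the width of 1 of 2 promoter peaks in wildtype unnumbered. *Ndufb10* and *Ndufa1* were thus both among the narrowest and among the lowest in standing.

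**Figure D3:**
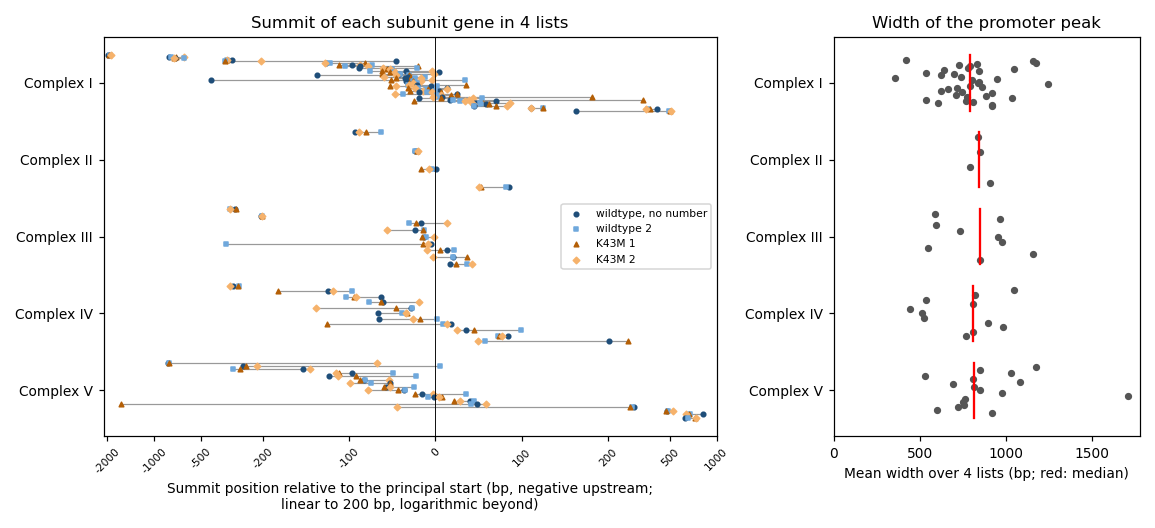
Left, summit position relative to the principal start (horizontal axis in bp, negative upstream, linear to 200 bp and logarithmic beyond) for each of the 78 genes, with a marker for each list and a line from lowest to highest. Right, mean width over the 4 lists (bp) with the median of each complex in red. In complexes I to IV most summits lie within 100 bp of the start, and in complex V 8 of 17 do.

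Summits lay close to the start of the principal transcript. The median distance, without regard to direction, was 47.75 bp for the subunit genes and 85.0 bp for the other genes. Of the 78 genes, 55 (70.5%) had their median summit within 100 bp, against 54.7% of the others, and 52 had it upstream of the start. The share was 71.8% for mitochondrial ribosomal protein genes, 72.5% for cytosolic ones and 64.6% for assembly factors and carriers. By complex, the share within 100 bp was 28 of 37 in complex I, all 4 in complex II, 7 of 9 in complex III, 8 of 11 in complex IV and 8 of 17 in complex V. Beyond 500 bp lay 6 members (7.69%, against 17.8% of the others), 3 of complex I and 3 of complex V. With negative positions upstream, *Ndufs5* was the farthest, at -1973, -1924, -1936 and -1888 bp. Its principal transcript starts inside the gene, at position 123716326. The gene as annotated, on the minus strand, begins at 123718202, within its open region (123717433 to 123718591). *Ndufa13* lay between -806 and -643 bp and *Ndufa11* between -744 and -643 bp. In complex V, *Atp5j* lay 628 to 736 bp and *Atp5f1* 635 to 816 bp downstream. *Atp5d* lay at -808, -799 and -798 bp in 3 lists and at -68 bp in K43M 2.

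The summit of a gene moved little between lists, by a median of 49.5 bp from the lowest to the highest position, and 39 of the 78 genes (50.0%) stayed within 50 bp. Other genes were much alike, with a median of 55.0 bp and 46.8% within 50 bp. Of the subunit genes *Sdhc* moved least, by 3 bp, and complex II and complex III were the steadiest complexes, with medians of 24.0 and 32.0 bp. The largest moves were those of *Atp5o* (1690 bp), *Atp5d* (740 bp), *Ndufa1* (466 bp), *Ndufs4* (342 bp) and *Uqcrh* (338 bp). *Atp5o* had 2 promoter peaks in each list, and another one led in K43M 1. There a peak at -1631 bp, at percentile 50.14, led over the peak at the start, at 50.08. A single promoter peak in every list was found for 63 of the 78 genes.

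Many subunit genes shared their promoter with a neighbor on the opposite strand. A protein-coding start on the other strand lay within 1000 bp for 25 of the 78 genes (32.1%). Among 12360 other genes with a promoter peak in at least 1 list, a looser filter than for the 78, the share was 14.9%. The 25 subunit genes were 13 of 37 in complex I, 3 of 4 in complex II, 3 of 9 in complex III, 1 of 11 in complex IV and 5 of 17 in complex V. For 10 of the 78 genes the summit was nearer to the start of another gene than to their own. Among them were *Ndufb3* (*Fam126b*), *Ndufs3* (*Kbtbd4*), *Ndufa11* (*Vmac*), *Ndufa7* (*Rps28*), *Sdhd* (*Timm8b*), *Uqcr10* (*Zmat5*), *Atp5c1* (*Kin*), *Atp5j* (*Gabpa*) and *Atp5f1* (*Wdr77*). Some of these neighbors serve the same organelle, as *Timm8b* does in mitochondrial protein import, and *Ndufb5* lies head to head with *Mrpl47* of the mitochondrial ribosome. A peak in such a window cannot be assigned to 1 of the 2 genes.

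Motifs were counted within 100 bp of the summit in wildtype unnumbered. NRF-1 was the most frequent of the 9. It was found at 21 of the 78 genes (26.9%, Wilson interval 18.3% to 37.7%), against 13.3% of 10368 other genes with a promoter peak in all lists. In complex V it was found at 9 of 17 genes (52.9%, 31.0% to 73.8%), against 6 of 37 in complex I, 2 of 4 in complex II, 2 of 9 in complex III and 2 of 11 in complex IV. The complex V genes were *Atp5c1*, *Atp5d*, *Atp5g2*, *Atp5g3*, *Atp5h*, *Atp5k*, *Atp5l*, *Atp5mpl* and *Atp5o*. The order of subunit genes and other genes was the same within 50 bp of the summit (20.5% and 9.57%), within 250 bp (30.8% and 19.3%) and at the summits of each list alone (26.9% to 29.5%, and 12.7% to 13.3%).

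YY1 was found at 8 genes (10.3%, against 3.11% of the others), 5 of them in complex I, and ERR at *Sdhd* and *Atp5g3* (2.56%, against 0.106%). Within 50 bp of the summit YY1 was at 1.28% and 1.08%. The exact ETS letters were found at 6 genes (7.69%, against 8.99%), NFY at 9 (11.5%, against 16.2%) and CRE at 4 (5.13%, against 3.67%). SP1 was found at 8 genes (10.3%, against 20.8%), E-box at 2 (2.56%, against 8.33%) and AP-1 at *Ndufa5* alone (1.28%, against 2.64%). The G and C content within 500 bp of the summit had a median of 56.2% at the subunit genes and 59.2% at the others, and its part in these shares was not tested. At least 1 of NRF-1, ETS and YY1 was found at 32 of the 78 genes (41.0%), against 23.5% of the other genes. By complex these were 13 of 37 in complex I (35.1%), 2 of 4 in complex II (50.0%) and 3 of 9 in complex III (33.3%). In complex IV they were 2 of 11 (18.2%) and in complex V 12 of 17 (70.6%). A match is only a run of letters, and binding was not measured here.

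**Figure D4:**
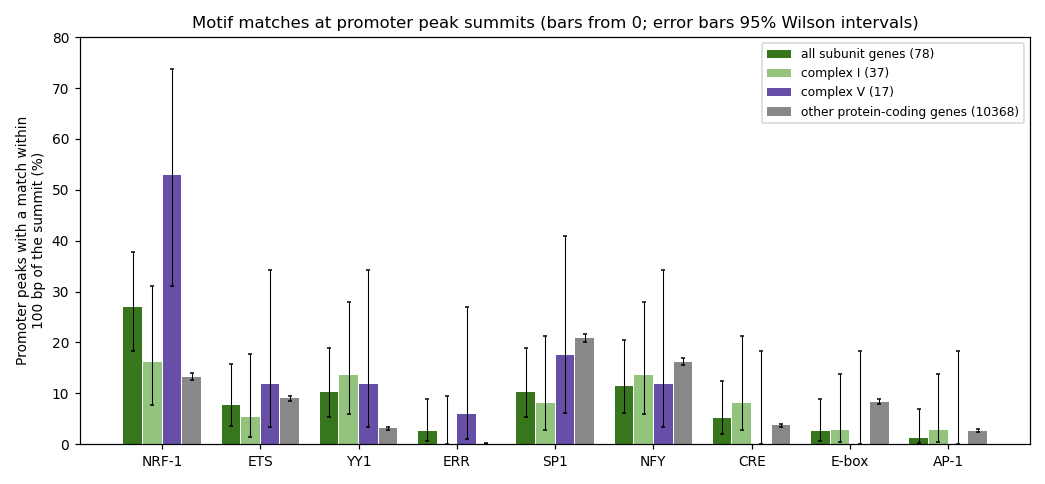
Share of promoter peaks with a motif match within 100 bp of the summit (vertical axis, %, bars from 0) for all subunit genes, complex I, complex V and the other protein-coding genes with a peak in all lists. Error bars are 95% Wilson intervals over genes. The NRF-1 bars stand at 26.9% for all subunit genes, 52.9% for complex V and 13.3% for the other genes.

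Members with an NRF-1 match did not stand higher than those without. Their median percentile, averaged over the lists for each gene, was 81.75 for the 21 genes with a match and 86.7 for the 57 without, while among the other genes it was 83.0 with and 78.9 without. The 9 genes with an NFY match had the highest median of any motif found at more than 2 genes, 93.8, against 86.2 for those without, and *Ndufa6*, *Ndufs8* and *Atp5h* were among them. Among the other genes the NFY medians were 87.8 and 77.6. Genes with an NRF-1 match stood at both ends. They included the lowest member, *Ndufa13*, and *Ndufb10*, and also the highest member, *Atp5h*.

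The next comparison asked whether the K43M mutation changed the promoter peaks of these genes. It used limma on log2 fold enrichment, centered on each list's median, over the 21012 regions found in every list. No region passed an adjusted p of 0.05 (0 of 21012, 0.0%), and 2610 (12.4%) had an unadjusted p under 0.05. None of the 78 member regions passed, and 1 (1.28%) had an unadjusted p under 0.05, against 5.54% of the other genes' promoter regions. The smallest adjusted p of a member was 0.267 in limma, for *Ndufb6*. Without wildtype unnumbered, limma called 101 regions, and without wildtype 2 it called 158, of which none was a member region in either case. In those fits the lone wildtype list was assumed to vary like the K43M lists, which alone supplied the spread. With 2 lists per genotype a single region cannot pass an exact permutation test, whose smallest two-sided p is 0.333.

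The differences were small on both sides of 0. The member regions had a median K43M minus wildtype difference of -0.00025 on the log2 fold enrichment scale, with 39 above 0 and 39 below, and a range from -0.54 to 0.28. The median size of the difference without regard to sign was 0.105. The 2 wildtype lists differed from each other by a median of 0.155 at these regions, and the 2 K43M lists by 0.162. The difference between genotypes, which is one between means of 2 lists, was thus smaller than that between single lists of the same genotype. By complex, the median difference was 0.0061 in complex I, 0.116 in complex II, -0.015 in complex III, -0.15 in complex IV and 0.037 in complex V. The genotypes did not overlap, with K43M higher, at 10 member regions (12.8%, against 21.3% of all regions), and with K43M lower at 14 (17.9%, against 21.0%). Among the other genes' promoter regions the shares were 20.8% and 18.2%, so that the second differed little from the members' share.

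**Figure D5:**
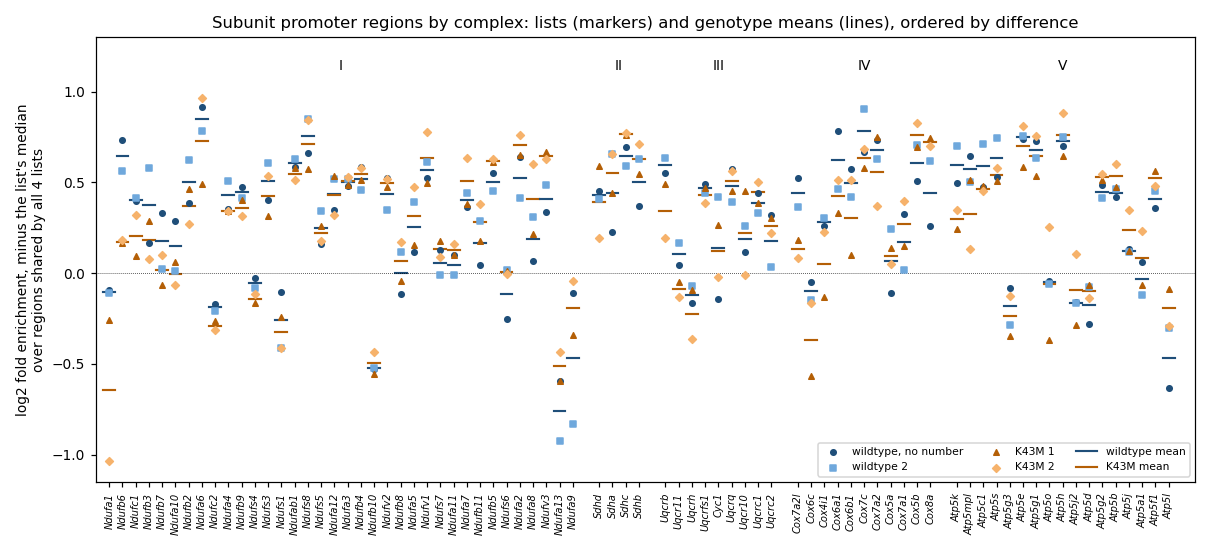
Log2 fold enrichment of each member region, minus the list's median over regions shared by all 4 lists (vertical axis), for 77 of the 78 genes, grouped by complex and ordered by the K43M minus wildtype difference. Markers are the 4 lists and lines the genotype means. *Ndufa1* has the largest difference, and its K43M 2 marker lies far below the other 3.

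The non-overlapping member with the largest difference was *Ndufa1*, an X-linked accessory subunit. Its fold enrichments were 7.93 and 7.80 in the wildtype lists and 7.33 and 3.97 in the K43M lists. Wildtype unnumbered had 2 promoter peaks, and its value is that of a peak with its summit at -432 bp. In the other lists the summits lay at 34, -51 and -4 bp, so the values do not all belong to the same summit. K43M 2 alone stood apart in height, with a summit pileup of 9 against 21 or 22 in the other lists. The log2 difference was -0.54 (SE 0.24, limma adjusted p = 0.413). It was -0.15 without K43M 2, and -0.27 where peaks had to overlap by 50% to be joined. *Ndufb6* was the clearer case, with fold enrichments of 14.05 and 12.4 in wildtype and 9.81 and 9.21 in K43M. Its log2 difference was -0.47 (SE 0.15, limma adjusted p = 0.267), with the lists of each genotype close together. With the summit pileup in place of the fold enrichment it was -0.27. *Cox7a2l* (12.15 and 10.85 against 9.94 and 8.61), *Atp5k* (11.9 and 13.7 against 10.4 and 10.3) and *Cox6c* (8.18 and 7.61 against 5.91 and 7.25) also had lower K43M lists. Their log2 differences were -0.31, -0.30 and -0.27, and none passed. That of *Cox6c* was -0.064 without K43M 1 and -0.47 without K43M 2.

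The largest non-overlapping differences in the other direction were smaller. *Cox8a* had fold enrichments of 10.1 and 12.95 in wildtype and 14.65 and 13.2 in K43M. Its log2 difference was 0.28 (SE 0.17, limma adjusted p = 0.564), and it was 0.079 without wildtype unnumbered and 0.45 without wildtype 2. *Atp5l* (5.46 and 6.85 against 8.24 and 6.63, which overlapped before centering), *Ndufa13* (5.59 and 4.44 against 5.81 and 6.01), *Ndufv3* (10.7 and 11.8 against 13.9 and 12.6) and *Ndufa2* (13.2 and 11.2 against 13.7 and 13.8) had log2 differences of 0.28, 0.25, 0.24 and 0.18. None passed. Single lists moved these values as well. Without wildtype unnumbered, *Atp5l* was at 0.086, *Ndufa13* at 0.39 and *Ndufv3* at 0.14. Without wildtype 2, *Atp5l* was at 0.43, *Ndufa13* at 0.074 and *Ndufa2* at 0.060. *Atp5l* was at 0.18 without K43M 1. For *Atp5l* the 2 nearest lists of different genotype were almost level after centering, at -0.30 in wildtype 2 and -0.29 in K43M 2.

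Peak width showed no call either. In limma on log2 width, 0 of 21012 regions (0.0%) passed and 1995 (9.49%) had an unadjusted p under 0.05. Among members 0 passed and 6 of 78 had an unadjusted p under 0.05, against 576 of 10393 for the other genes' promoter regions. The K43M lists were wider without overlap at 19 member regions (24.4%, against 19.4% of all regions) and narrower at 11 (14.1%, against 19.9%). Among the other genes' promoter regions the shares were 16.7% and 18.7%. The largest change was that of *Uqcrfs1*, 714 and 708 bp in wildtype and 368 and 395 bp in K43M, a log2 difference of -0.87 (SE 0.18, limma adjusted p = 0.263), while its fold enrichment differed by only -0.040. Its recovered summit pileups were 54 and 43 in wildtype and 29 and 26 in K43M, and its local background differed by -1.09 on the log2 scale. *Sdhc* was also narrower, at 808 and 1249 bp against 550 and 576 bp, and so was *Ndufa11*, at 1498 and 1436 bp against 866 and 894 bp. Its window held 1 peak in each wildtype list and 2 in each K43M list, so the K43M width is that of 1 of 2 peaks. *Atp5g3* and *Ndufv1* were wider in K43M. So was *Ndufa1*, at 281 and 363 bp in wildtype against 629 and 411 bp in K43M. The *Ndufa1* window held 2 peaks in wildtype unnumbered, so the 281 bp is the width of 1 of 2 peaks.

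*Uqcrfs1* lies on chromosome 13, where the local background was lower in the K43M lists. At the 6 members on that chromosome (*Ndufs4*, *Ndufs6*, *Sdha*, *Uqcrb*, *Uqcrfs1* and *Cox7c*) the median K43M minus wildtype difference of the local background was -0.44 on the log2 scale, and that of the pileup -0.42. At the 2 members on chromosome 18 (*Atp5a1* and *Ndufa2*) these were -0.76 and -0.49. At the other 70 they were -0.14 and -0.13. The fold enrichment, which divides 1 by the other, differed by a median of -0.062, 0.148 and -0.00025 in the 3 groups. The part of this background in the widths was not tested.

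The genes that build and serve the complexes were measured in the same way. Of 49 assembly factor and carrier genes, from *Ndufaf1* to *Cycs* (cytochrome c), 48 had a promoter peak in all lists, with median percentiles of 86.0, 86.25, 86.4 and 85.9. All 78 mitochondrial ribosomal protein genes had one, at 81.8, 83.3, 85.7 and 80.1, and so had 80 of 83 cytosolic ribosomal protein genes, at 79.7, 79.0, 80.5 and 80.6. No region of these 3 lists passed in limma, and 1, 1 and 4 had an unadjusted p under 0.05. The medians of the subunit genes thus lay between those of the ribosomal proteins and those of the assembly factors in wildtype unnumbered and in K43M 2, above both in wildtype 2, and below the mitochondrial ribosomal proteins in K43M 1.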

How the data were processed

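ATAC-seq peaks of 4 lines were used, 2 per genotype. According to the methods and the submitters' processing notes, reads were trimmed with Trimmomatic 0.36 and mapped to mm10 with BWA 0.7.15. Blacklisted regions (bedtools) and reads of low mapping quality or with several matches (SAMtools 1.3.1) were removed, and peaks were called in each library with MACS2 2.1.0, with no model, an extension to 200 bp and a shift of -100. The authors deposited, for each peak, a fold enrichment (a ratio of summit signal to local background) and -log10 p and -log10 q values, which rank peaks within 1 list. Depth enters through the summit pileup, recovered from fold enrichment and -log10 p for 100% of peaks (tolerance 0.001 on -log10 p). Member pileups ran from 9 to 115 read ends, which limits the precision of narrow and low peaks. Intervals cover counting error only.

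The wildtype list with no sample was put in its group from the WT in its own name and peak names. The design text of the series names 2 lines per genotype. Whether lines came from separate animals is not stated per sample, so p-values measure the spread between these lines. Genes followed GENCODE release M21, on the build of the lists and later than the release the authors used. Peaks that overlapped by 1 bp were merged into 50965 regions, of which 21012 held a peak in every list. Those were compared with limma 3.58.1 (R 4.3.3), two-sided, with Benjamini-Hochberg adjustment. Sequences came from the GRCm38.p6 RefSeq assembly through pysam 0.24.0. Tables were made with Python 3.11.15, pandas 2.3.3, numpy 2.4.6, scipy 1.17.1 and matplotlib 3.10.9. Code was tested on simulated data. Some values are not reported here. Members, lists, motifs and rules were chosen with earlier results of these data known. Genes were named where they lacked a peak, were core subunits or complex IV isoforms, stood highest or lowest in their complex, or had the largest non-overlapping differences, the widest or narrowest peaks or the most variable summits. Genes sharing a promoter, carrying motif matches or lying on chromosomes 13 and 18, and those with a width p under 0.05, were named after their values were seen. Alternatives changed the scaling, ranking, peak threshold, overlap, window, transcripts, summit choice, chromosomes, motif distance and libraries.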

Additional observations from a re-analysis of the deposited data

How the results depend on the processing

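No member region was called for fold enrichment or width under any alternative run. Over all regions, the calls for fold enrichment rose from 0 to 35 (24 higher and 11 lower in K43M) with the recovered summit pileup in place of the fold enrichment. Leaving out 1 list gave 0 to 158 calls: 101 without wildtype unnumbered (88 higher, 13 lower), 158 without wildtype 2 (116 higher, 42 lower) and 0 without either K43M list. Width gave 0 calls under every alternative. The median percentile of the subunit genes, 84.9 as the mean over lists, became 82.8 with peaks of a -log10 q of at least 5, 82.6 ranked by -log10 q and 80.4 ranked by pileup. Complex I went from 83.6 to 81.0 by -log10 q and 77.1 by pileup, complex II from 93.01 to 86.1 by pileup, and complex III from 82.65 to 77.8 by pileup. Complexes IV and V moved by less than their spread between lists under each alternative. With a window of 500 bp on either side, the count of genes with a peak in 1 genotype only went from 1 to 0. Measured to the nearest start of any transcript, the median summit distance was 36.75 bp in place of 47.75 bp. YY1 matches fell from 10.3% to 1.28% within 50 bp of the summit. Of the 5 members with the largest non-overlapping differences in each direction, *Ndufa2* on chromosome 18 turned from 0.18 to -0.31 on the log2 scale with pileup and to -0.18 with pileup over the genome background. The cause of these changes was not tested. Pairing was tried after seeing the data, with the unnumbered wildtype list taken as number 1 by elimination. The deviations of same-numbered lists correlated by 0.030 for fold enrichment and 0.046 for width over regions. Since the numbering was partly assumed, this cannot tell whether same-numbered lines were prepared together. With the replicate block limma called 0 regions for fold enrichment or width (2715 and 2007 at an unadjusted p under 0.05). Depth was known only relative between lists. The summit pileup over the genome background, also chosen after seeing the data, gave 290 calls (237 higher, 53 lower) and shifted the median of all regions by 0.14 on the log2 scale.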
